A study of Mus musculus with 2 samples.

Results

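Some stretches of open chromatin in the adult mouse cortex hold many separate DNase I sites side by side, and the 38 autosomal stretches with 5 or more sites shared by both libraries are described here. DNase-seq, which maps DNA that the nuclease DNase I can cut, was applied to left cerebral cortex from B6CASTF1/J males, 8 to 10 months of age. There were 2 libraries, labelled biological replicates 1 and 2, in 1 untreated group. The labels give both the same donor and separate biosamples, so the spread between them may leave out variation between animals. A shared site was a peak of the stricter of each library's peak lists that overlapped a stricter peak of the other library, with overlapping peaks merged and sites within 200 bp joined. Shared sites with gaps of 5 kb or less were stitched, and groups of 5 or more sites on autosomes were kept as clusters. This gave 38 clusters of 22220 stitched groups (0.171%), with 214 of the 26537 shared sites. The clusters were chosen by the positions of the peaks in both libraries, so their number, size and strength are descriptions with no test.

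Open chromatin marks DNA from which nucleosomes have been displaced by bound factors, mostly at gene starts and at distal regulatory elements such as enhancers. Dense groups of such sites are known around genes for transcription factors and signalling regulators that have several enhancers, and where many short genes lie together. Transfer RNA (tRNA) genes are of the latter kind: RNA polymerase III transcribes them from promoter elements inside the gene, the A box and the B box, which the factor TFIIIC binds, while TFIIIB sits just upstream of the gene.

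The first set of sequences shows what open DNA away from gene starts looks like in 4 clusters. Each is the 200 bp at the midpoint of the cluster's strongest site more than 1000 bp from any annotated start, in mm10, read from the RefSeq GRCm38.p6 reference and written 5′ to 3′. Capitals mark E-boxes (CATCTG and CACGTG at Tbr1, CAGCTG and CACGTG at Id2), the CCAAT box read on the opposite strand and 1 CAGCTG at Nfic, and in the chromosome 1 cluster CACCC boxes (CCACCC) that overlap each other and GC boxes (GGGCGG) read on the opposite strand. CATCTG at Tbr1 is also on the opposite strand.
Tbr1, site in a coding exon (chr2:61807240-61807439, + strand): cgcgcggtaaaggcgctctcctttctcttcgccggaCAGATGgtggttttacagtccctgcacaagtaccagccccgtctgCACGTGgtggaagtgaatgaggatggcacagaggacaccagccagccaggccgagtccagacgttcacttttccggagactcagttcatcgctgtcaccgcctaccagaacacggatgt
Id2, intergenic site (chr12:25092341-25092540, + strand): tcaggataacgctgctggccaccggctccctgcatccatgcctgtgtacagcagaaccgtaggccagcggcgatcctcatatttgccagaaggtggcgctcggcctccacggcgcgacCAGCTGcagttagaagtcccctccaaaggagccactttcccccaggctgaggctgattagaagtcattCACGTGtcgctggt
Nfic, intronic site (chr10:81432971-81433170, + strand): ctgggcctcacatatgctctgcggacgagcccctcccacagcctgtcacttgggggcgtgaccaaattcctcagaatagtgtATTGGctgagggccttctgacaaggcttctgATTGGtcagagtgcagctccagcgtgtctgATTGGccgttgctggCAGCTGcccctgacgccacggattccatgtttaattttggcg
Intergenic cluster of chromosome 1 (chr1:86434296-86434495, + strand): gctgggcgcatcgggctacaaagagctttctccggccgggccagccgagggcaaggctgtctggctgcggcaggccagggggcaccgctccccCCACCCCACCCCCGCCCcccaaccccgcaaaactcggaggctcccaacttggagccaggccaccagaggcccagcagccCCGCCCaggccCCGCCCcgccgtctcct
Matches to such short letters are common: over all 26537 shared sites, the 200-bp window held CCAAT in 24.3%, CACCC in 22.6%, GC box in 31.9%, CAGCTG in 14.4%, CATCTG in 14.1% and CACGTG in 5.61%.

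The second set shows tRNA genes under cluster sites, because their share among cluster sites was far above that among all shared sites. These 150-bp windows were chosen after their values were seen and are printed on the strand of the gene. Capitals mark the letters that match the B box consensus.
tRNA-Arg gene n-TRtcg1 (chr13:23526417-23526566, - strand): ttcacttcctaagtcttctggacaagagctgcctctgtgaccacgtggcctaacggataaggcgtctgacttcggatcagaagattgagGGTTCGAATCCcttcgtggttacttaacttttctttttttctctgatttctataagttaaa
tRNA-Ser gene n-TSgct3 (chr11:69063008-69063157, - strand): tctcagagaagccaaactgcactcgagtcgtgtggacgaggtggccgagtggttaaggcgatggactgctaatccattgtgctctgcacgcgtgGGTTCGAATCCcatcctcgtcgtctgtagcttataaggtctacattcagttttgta
tRNA-His gene n-THgtg8 (chr3:96500327-96500476, - strand): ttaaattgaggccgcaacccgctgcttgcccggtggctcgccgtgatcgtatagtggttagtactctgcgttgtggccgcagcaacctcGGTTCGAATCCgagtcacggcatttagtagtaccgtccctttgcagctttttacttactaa
tRNA-Asn gene n-TNgtt6 (chr1:171033904-171034053, - strand): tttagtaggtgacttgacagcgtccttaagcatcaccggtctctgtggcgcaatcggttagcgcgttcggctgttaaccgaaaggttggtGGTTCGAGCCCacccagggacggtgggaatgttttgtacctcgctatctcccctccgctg
The 4 genes differ in anticodon, and the capitals read the same in all but n-TNgtt6. Genes were picked for printing among those with the B box letters, which not every tRNA gene under a cluster site has.

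The third set comes from a tandem repeat near the assembled end of chromosome 9, again chosen after its values were seen. The windows are 100 bp each, lie 234 bp apart inside 1 site, and are 90% identical.
First repeat copy (chr9:3024021-3024120, + strand): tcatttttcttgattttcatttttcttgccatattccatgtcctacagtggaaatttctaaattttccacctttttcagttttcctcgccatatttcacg
Second repeat copy (chr9:3024255-3024354, + strand): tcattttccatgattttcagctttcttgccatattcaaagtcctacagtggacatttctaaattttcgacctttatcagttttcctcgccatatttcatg

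Replicate 1 had 39570 stricter autosomal peaks and replicate 2 had 38360. The deposited signal value of a peak is called its strength here, and the strongest peak of a library in a site gave that site's strength. Its normalization and the read depth are unknown, so no interval for depth is given. A shared site lay within 1000 bp of a start for 20 of 23 neuronal genes, 10 of 16 astrocyte genes and 4 of 15 oligodendrocyte genes, and for 0 of 14 liver, 0 of 12 heart, 0 of 10 erythroid and 2 of 14 gut and pancreas genes. It did so for 2 of 14 inhibitory neuron genes, 4 of 16 interneuron transcription factor genes, 2 of 16 microglial genes and 2 of 15 endothelial genes. Over all autosomal protein-coding genes the share was 55.8%. The general neuronal and astrocyte lists were above that share, and the other lists just given were below it. The excitatory list (9 of 14) was also above it. The oligodendrocyte precursor (6 of 12) and pericyte (1 of 10) lists were below it. Stretches that were blank in 1 library only are described with the clusters of each library alone.

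Most shared sites stood alone. There were 18700 groups of 1 site, 2927 of 2, 451 of 3 and 104 of 4, and above the limit there were 23 groups of 5 sites, 11 of 6, 2 of 7, 1 of 8 and 1 of 11. Groups just inside and just outside the limit were alike in strength: the median strength of sites in groups of 5 was 1.64 in replicate 1 and 1.61 in replicate 2, and in groups of 4 it was 1.65 and 1.56. Clusters spanned 3.9 to 18.54 kb with a median of 7525.5 bp, and together 339.68 kb. The gaps between neighbouring sites had a median of 789.5 bp and ran from 202 to 4880 bp. Sites covered from 9.08% to 73.2% of the span, with a median of 25.7%. The most sparsely filled span was that of Fosb, a transcription factor gene induced by neuronal activity, and the most filled was that of Mycn, a growth-promoting transcription factor gene. Chromosome 11 held 6 clusters, chromosome 3 held 4, and 4 autosomes held 0.

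**Figure D1:**
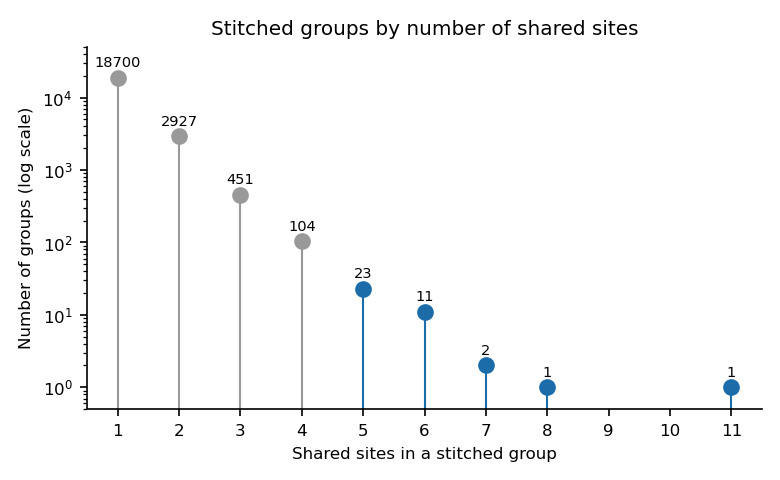
The number of stitched groups (vertical log axis) by the number of shared sites in a group (horizontal axis). Grey points are groups of 1 to 4 sites and blue points are the 38 clusters, which make up 0.171% of the groups and reach 11 sites.

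tRNA genes lay under 32 of the 214 cluster sites (15.0%, exact Clopper-Pearson 95% interval 10.5% to 20.4%, which covers counting error only). Intervals over sites, here and below, treat the sites of 1 cluster as independent, which they are not. Over all shared sites the share was 0.641%, and outside the clusters it was 0.524% (138 of 26323). The share was also higher in larger groups, from 0.283% in groups of 1 site to 5.77% in groups of 4. The tRNA annotation was RefSeq's, and it was examined only after the clusters had been seen. GENCODE M21, which supplied the starts, leaves most of these genes out: 26 of the 32 tRNA sites were more than 1000 bp from any GENCODE start. Of 386 autosomal tRNA genes, 192 had a shared site and 36 of those lay under cluster sites. The 36 genes covered 16 amino acid classes, so no single class accounted for them. The most came from glycine, with 5 of its 28 autosomal genes, and serine, with 4 of 22. Tryptophan had 2 of 8, beside 36 of 386 over all classes.

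Of the 38 clusters, 7 held at least 3 tRNA sites, a class drawn after the values were seen. The other clusters held no tRNA site, so all of the tRNA sites lay in these 7. The cluster with the most sites of all was one of them, at chr13:23517188-23535440 in the Hist1 histone locus. It held 11 sites, of which 8 lay over tRNA genes, and the starts of Hist1h4h, Hist1h3g and Hist1h2af, which encode core histones H4, H3 and H2A. Its summed strength was 28.6 in replicate 1 and 34.4 in replicate 2, the highest of all clusters in both libraries. The strongest tRNA site, over the arginine gene n-TRtcg1 printed above, measured 4.31 and 5.48, and the site at the start of Hist1h4h measured 4.63 and 4.94. All 8 tRNA sites were higher in replicate 2, while the site at Hist1h3g was lower there, at 2.62 and 2.01.

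On chromosome 11, 3 clusters of this class were neighbours. The first, at chr11:69035841-69045781, held 7 tRNA genes under 4 of its 6 sites between Ctc1, a telomere maintenance gene, and Aurkb, which encodes the mitotic kinase Aurora B. Its sums were 19.6 and 24.0. The second, at chr11:69059301-69073320, held 7 sites with the starts of Borcs6, a lysosome positioning gene, and Tmem107, a gene of the ciliary transition zone. Its sums were 21.6 and 22.6, and the site over the serine gene n-TSgct3, its strongest, measured 5.52 and 7.12. The third, at chr11:69118721-69125640, held tRNA sites beside the starts of Hes7, a Notch-responsive repressor gene, Aloxe3, a lipoxygenase family gene, and 9130213A22Rik, with sums of 15.4 and 16.1.

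Another 3 held no start of a protein-coding gene. At chr3:96497701-96503360, between BC107364 and Hfe2, 5 of 6 sites lay over tRNA genes, and the histidine gene n-THgtg8 had the strongest, at 5.02 and 5.74. At chr19:12005461-12012536, between Osbp and Olfr1423, each of the 5 sites lay over a tRNA gene. The span held 7 tRNA genes, not all of them under a site, and the sums were 12.3 and 15.2. At chr1:171033221-171038720, between the Fc receptor genes Fcgr4 and Fcgr3, 4 of 5 sites lay over tRNA genes, and the sums were 9.84 and 11.9. In each of the 7 clusters the sum was higher in replicate 2. Of the 28 clusters that were neither of this class nor copy-rich, as defined below, 11 were higher in replicate 2.

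The lean toward replicate 2 was also seen site by site. The 32 cluster tRNA sites had a median strength of 2.78 in replicate 1 (1.28 to 5.52) and 3.36 in replicate 2 (1.28 to 7.38), and 30 of 32 were higher in replicate 2. Of the 138 tRNA sites outside clusters, 115 were higher in replicate 2, with medians of 3.16 and 3.99. Over all shared sites outside clusters, 34.3% were higher in replicate 2. The tRNA sites thus leaned the other way from the rest of the shared sites, inside and outside the clusters. What moved them in 1 of 2 libraries was not tested.

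The authors' deposited footprints, short stretches protected from cutting, had a repeated layout along the tRNA genes. Averaged over the positions 20 to 40 bp upstream of the gene, 59.4% of the 36 genes under cluster sites lay in a footprint in replicate 1 and 73.3% in replicate 2. Over bases 46 to 66 of the gene the shares were 74.6% and 77.5%. This zone holds the B box letters of the shorter genes that have them. In longer genes the letters run past it: in n-TSgct3, of 82 bp, they start at base 61. Between these zones the first 30 bp of the gene had 17.1% and 19.3%, and 60 to 80 bp upstream the shares were 1.94% and 3.06%. Footprints were therefore in the same places in both libraries, upstream of the gene and in its second part. In most of the tRNA clusters part of the sequence occurs elsewhere in the reference, as given below. Reads may be placed there with error, in both libraries. The 156 tRNA genes with shared sites outside clusters had 73.2% and 79.0% in the upstream zone and 71.8% and 76.9% over bases 46 to 66. These values were close to those inside clusters over bases 46 to 66 and higher in the upstream zone. The B box letters occurred in 27 of the 36 genes and in 194 of the 350 other autosomal tRNA genes.

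**Figure D2:**
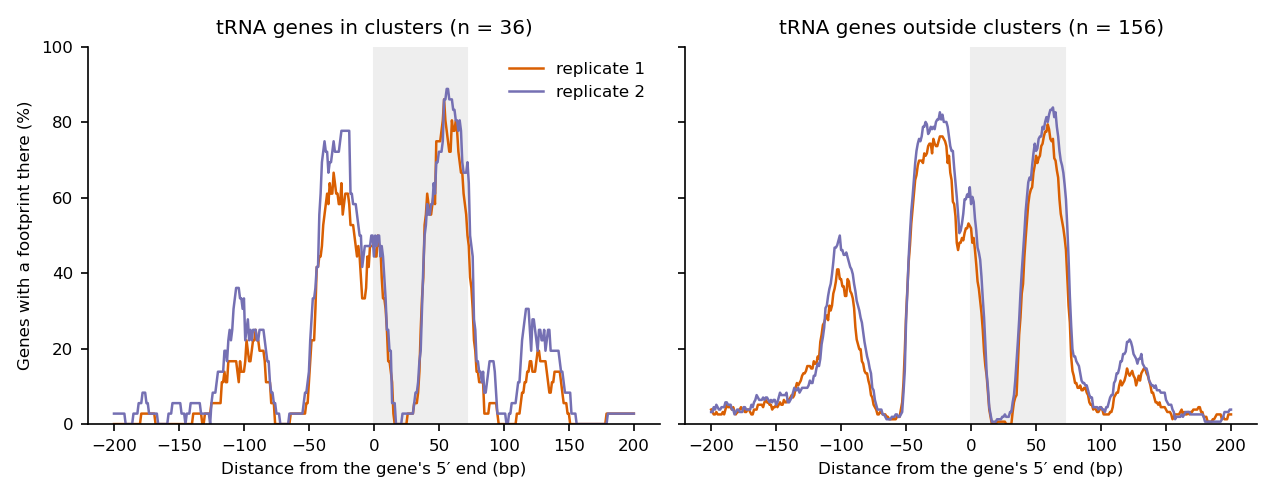
Share of tRNA genes with a deposited footprint at each position (vertical axis, percent) by distance from the 5′ end of the gene (horizontal axis, bp), for the 36 genes under cluster sites (left) and the 156 with shared sites outside clusters (right), with 1 line per library and a grey band over the gene body. Both libraries have a peak upstream of the gene and one inside it, which reaches 86.1% and 88.9% in clusters.

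The second largest cluster, at chr13:23745501-23764040, held histone gene starts and no other protein-coding ones. It was the longest, at 18.54 kb, and each of its 8 sites lay within 1000 bp of a start. It held 8 coding genes, among them Hist1h4a, Hist1h3a and Hist1h3b for core histones and Hist1h1a for a linker histone, of the kind made when DNA is replicated. Its sums were 17.4 and 16.5, and the site nearest Hist1h4a was the strongest, at 4.99 and 4.06. Together, 11 of the 67 autosomal genes named Hist had a start in a cluster (16.4%), against 0.288% of all autosomal protein-coding genes (60 of 20807). A shared site lay at the start of 52 of the 67. This count was made after the clusters had been seen, and histone genes of 1 type are near copies of each other, so peaks may be placed among them with error.

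A single coding gene started in 17 clusters, and in several of them it was a regulatory gene with open sites spread along and around it. Which gene the sites act on was not tested. Other clusters of the 17 held genes of other kinds, among them Pcdh17, Fat4, Flrt2 and Mmp17, named after their values were seen. Pcdh17 had 6 sites with sums of 9.63 and 9.66. Tbr1, which encodes a transcription factor of deep-layer projection neurons, had 7 sites over 13.0 kb at chr2:61802794-61815841. These were weak: the sums were 5.21 and 5.37, and single sites ran from 0.588 to 0.967 in replicate 1 and from 0.556 to 1.12 in replicate 2. The nearest other coding starts, Psmd14 and Slc4a10, lay 91.1 and 230.62 kb away. The strongest site lay inside the gene within 1000 bp of a start, and 4 sites lay away from starts, 1 in a coding exon, 1 in an intron and 2 beyond the gene.

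Id2, which encodes an inhibitor of basic helix-loop-helix factors, had 6 sites at chr12:25092341-25101130. The promoter site measured 5.004 and 3.518. The site whose sequence is printed above, 3.646 kb from the start, measured 2.66 and 2.88. A further site 1.771 kb from the start measured 2.43 and 2.49, so the promoter was the strongest in both libraries and differed most between them. The other 3 sites were under 1 in both libraries, and 5 of the 6 sites lay away from starts.

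Spry2, which encodes a feedback inhibitor of growth factor signalling, had 6 sites at chr14:105892921-105899140. Its strongest site was 2.122 kb from the start and measured 2.96 and 3.81, above a promoter-side site at 2.80 and 2.58. In Mycn, at chr12:12937101-12942740, a site near the start measured 2.30 and 1.55 and 4 weaker sites lay away from starts. Fosb, at chr7:19295921-19310540, had sums of 14.7 and 14.9 over 5 sites.

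Another 3 clusters lay wholly inside the body of 1 gene. In Nfic, a nuclear factor I gene, 6 sites at chr10:81424827-81433200 had sums of 7.77 and 6.41. The strongest, in an intron and printed above, measured 3.203 and 2.05, and the intragenic start had a site 2412 bp wide at 1.76 and 1.68. In Gpr85, an orphan receptor gene expressed in brain, 5 sites over 3.9 kb, the shortest cluster, had sums of 4.64 and 4.94. In Wnt5a, which encodes a secreted signalling protein, 5 sites at chr14:28505184-28510640 had sums of 3.21 and 4.17, and each of them was higher in replicate 2. Sums were thus low in Gpr85 and Wnt5a in both libraries.

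Otx1, which encodes a homeodomain factor of deep-layer neurons, had the lowest sum, 2.95 and 3.68, over 5 sites at chr11:21993821-22003920. None of its sites exceeded 0.654 in replicate 1 or 0.889 in replicate 2. In the Tbr1, Wnt5a and Otx1 clusters no site was strong in either library.

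**Figure D3:**
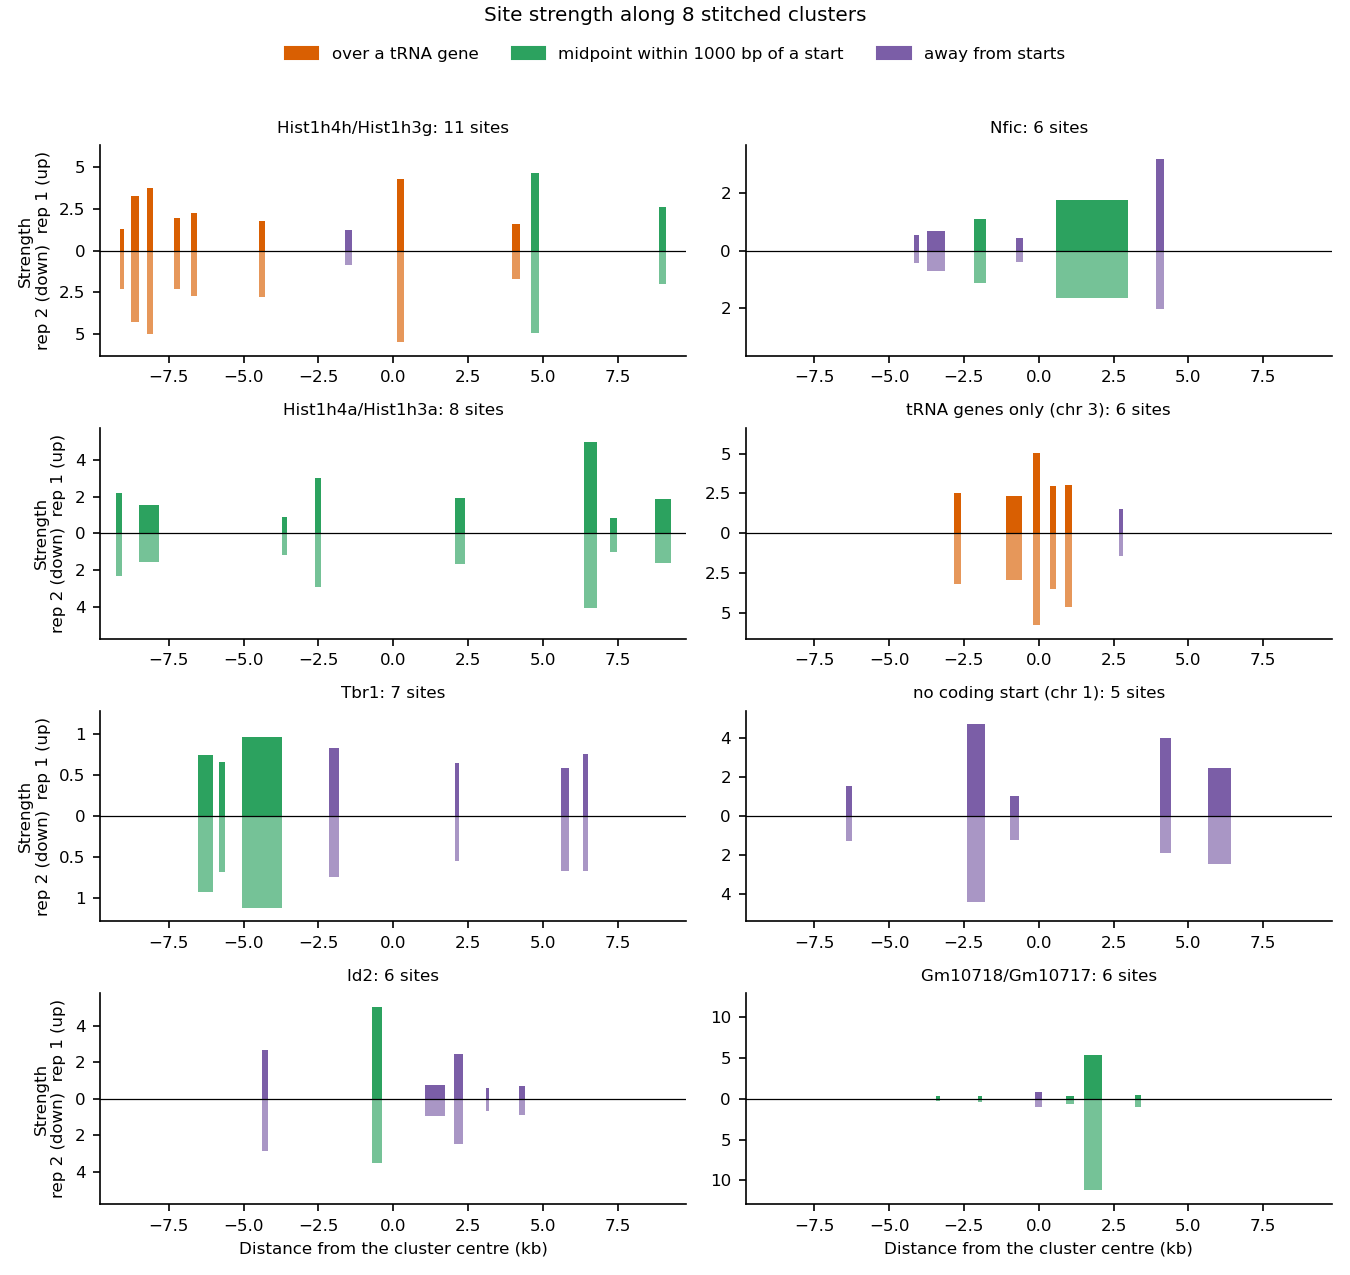
Strength of each site in 8 clusters (vertical axes, replicate 1 upward and replicate 2 downward, each panel on its own scale) by distance from the cluster centre (horizontal axis, kb), with bar width equal to site width but at least 0.06 kb. Orange sites lie over tRNA genes, green sites within 1000 bp of a start and purple sites away from starts. Tbr1 sites stay at or under 1.12, and those of the histone and tRNA cluster reach 5.48.

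Other clusters were rows of promoters. The Maz cluster at chr7:127017021-127027680 had 6 coding genes, the most outside the histone locus, and all of its 5 sites lay near starts. These included Maz, a zinc finger factor gene, Kif22, a kinesin gene of mitosis, Pagr1a, a cofactor gene of histone methylation, and Prrt2, a presynaptic gene. Kif22 was counted by the start of 1 or more of its transcripts. The start of its full gene record lay 14.79 kb beyond the cluster. The strongest site, 424 bp from a start of Maz, measured 6.46 and 5.22, and the sums were 15.3 and 12.8. Dbp, a circadian output factor gene, shared a cluster at chr7:45699901-45707860 with Car11, a carbonic anhydrase family gene. All 6 of its sites lay near starts, and the strongest, 1177 bp wide, measured 6.28 and 4.53.

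The cluster of Atxn7l2 and Cyb561d1 at chr3:108195861-108210900 was among the 3 longest, at 15.04 kb. It held 18 stricter peaks in replicate 1 and 9 in replicate 2, although its sums were 12.7 and 11.5. Its promoter sites measured 4.08 and 3.48 at Atxn7l2 and 3.07 and 2.42 at Cyb561d1, and 4 sites lay away from starts. All of these promoter sites were higher in replicate 1.

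All sites lay away from starts in 5 clusters, and 3 of these are the tRNA clusters without coding starts. The fourth lay at chr1:86430074-86442940, between Tex44, a testis-expressed gene 3.745 kb away, and Ptma, the prothymosin alpha gene 83.785 kb away. It was the only one of the 38 with neither a GENCODE start nor a tRNA gene inside. Its 5 sites had sums of 13.7 and 11.2. The strongest, printed above, measured 4.67 and 4.38, and a site 14.408 kb from the nearest start measured 3.98 in replicate 1 and 1.90 in replicate 2. That site differed most between the libraries, and the others stayed closer.

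The fifth lay at chr11:3123288-3132260 over the pseudogene Pisd-ps1, whose nearest coding start was Sfi1, 61.202 kb away. Its sums were 18.1 and 16.9, and its strongest site, in an exon of the pseudogene, measured 6.74 and 6.81. Much of its sequence occurs elsewhere: 52.6% was the median over its sites of the share of 31-base words found more than once in the reference, and the median copy number was 2. In such sequence a read cannot be placed with certainty.

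By this measure 3 clusters were copy-rich, with a median above 50%, a class drawn after the values were seen. Over single sites, 15 of the 214 cluster sites passed 50% (7.01%), against 1.03% of all shared sites. The cluster at chr4:88755021-88762100, with the starts of the predicted genes Gm13271 and Gm13283, had a median of 77.0% and 11 copies, with sums of 9.86 and 10.1.

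The third copy-rich cluster lay at chr9:3019101-3025940, 19.1 kb from the first assembled base of the chromosome, over the predicted genes Gm10718, Gm10717 and Gm10719. As medians over its sites, 99.1% of the sequence was masked as repeat and the 31-base words had 36 copies. Shifted by 234 bp, the whole span matched itself at 72.3% of positions. In the other 37 clusters the best such match was at most 30.6%. Its sums were 7.88 in replicate 1 and 14.6 in replicate 2, the largest difference between libraries of all clusters (log2 ratio 0.89). A single site, which holds the repeat copies printed above, measured 5.42 and 11.2 and made most of that difference. Next in order of difference were Wnt5a at a log2 ratio of 0.37 and Otx1 at 0.32, both higher in replicate 2.

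Across the 38 clusters, 4 had no GENCODE start inside and 7 had no protein-coding start. A single coding gene started in 17 and at least 2 in 14. The strongest site lay near a start in 23 clusters. Of the 214 sites, 106 lay away from starts (49.5%, interval 42.6% to 56.4%), beside 48.1% of all shared sites, so the share was near the background. That background varied with group size: 52.7% in groups of 1 site, 36.5% in groups of 2 to 3 and 42.8% in groups of 4. Counting tRNA genes as starts, an alternative added after seeing the data, brought the cluster share to 37.4% (80 of 214). By position, 65 sites were intergenic (30.4%, interval 24.3% to 37.0%) against 24.4% outside clusters, and 22 were intronic (10.3%, interval 6.56% to 15.2%) against 20.4%. Without tRNA sites, intergenic sites made up 21.4%. Coding exons held 10 sites (4.67%, interval 2.26% to 8.43%) against 1.24%, among them sites in Tbr1, Spry2, Mycn and Foxo3.

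The 80 away sites without tRNA genes were wider than other away sites, with a median of 300 bp against 202 bp. Their GC content was 57.4% against 52.3%. They had a mean of 4.1 footprints in replicate 1 and 4.28 in replicate 2, against 2.79 and 2.84. Peaks within 200 bp were joined into 1 site and clusters were chosen for dense peaks, so the rule itself bears on width. Width bears on the number of footprints a site can hold. The part of the rule and of width in these values was not tested. The 80 sites had a median strength of 1.21 and 1.26, against 1.24 and 1.11 for other away sites. They were thus wider but about as strong. GC box letters occurred in the 200-bp window of 19 of the 80 (23.8%, interval 14.9% to 34.6%), against 10.95% of away sites outside clusters. Near starts the GC box went the other way, in 41.7% of the 108 cluster sites against 51.3% outside. Over all cluster sites its share was 31.3%, against 31.9% of other shared sites. The CTCF core, a longer motif of the insulator factor CTCF, occurred in 2 of the 214 cluster sites (0.935%, interval 0.113% to 3.34%) against 4.32% of other shared sites. The AP-1 letters TGACTCA occurred in 3 cluster sites (1.402%, interval 0.290% to 4.04%) against 3.95%, which lies in that interval. The ETS letters CCGGAAG occurred in 6 (2.80%, interval 1.04% to 6.002%) against 7.03%. In all, 17 motifs were searched on both strands.

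Of 413 listed genes, in 27 lists of brain cell types, regulators and control genes, 7 had a start in a cluster (1.69%), against 0.288% of all coding genes. They were Fosb of the activity-regulated list, Dbp of the clock list, Nfic of the nuclear factor I list, Id2 of the helix-loop-helix list, Tbr1 of the cortical layer and excitatory lists, Spry2 of the growth factor feedback list and Mycn of the Myc list. The other 19 lists had no member in a cluster, among them the general neuronal, inhibitory, interneuron, postsynaptic, glial, vascular, ribosomal protein and organ lists. These lists were chosen with earlier results known and describe the clusters only. Regulators outside the lists also had clusters, among them Foxo3, Otx1, Wnt5a and the microRNA gene Mir124a-3, whose product is abundant in neurons. The Mir124a-3 cluster at chr2:180890987-180897540 had no coding start, and its sums were 9.31 and 8.06. Foxo3 and Mir124a-3 were named after their values were seen.

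The libraries gave similar cluster strengths. The absolute log2 ratio of summed strength had a median of 0.15 and reached 0.89, and 20 of 38 clusters were higher in replicate 2. The same site was the strongest in both libraries in 32 clusters. Over the 214 sites the log2 strengths of the libraries had a Pearson correlation of 0.943, beside 0.939 over the other 26323 shared sites. These are descriptions across sites that share their libraries. In the cluster spans the deposited table of false discovery rates listed 626 to 5290 intervals in replicate 1 and 839 to 4850 in replicate 2, and the lower count was never under 0.485 of the higher.

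**Figure D4:**
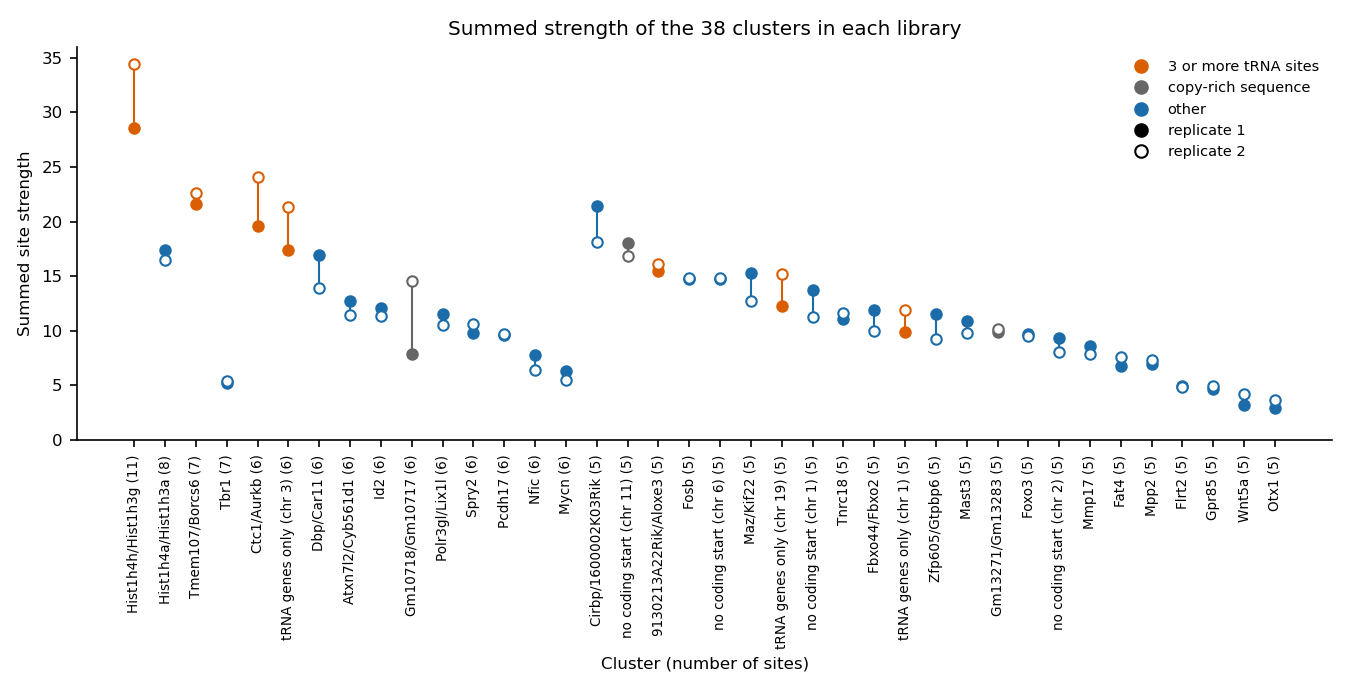
Summed site strength (vertical axis, from 0) of the 38 clusters in order of number of sites (horizontal axis, with coding genes and number of sites), filled circles for replicate 1 and open circles for replicate 2. Orange clusters hold 3 or more tRNA sites and all 7 are higher in replicate 2; grey clusters are copy-rich, and the one of Gm10718 has the widest gap, 7.88 and 14.6.

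Stitching all stricter peaks of 1 library gave more clusters, 153 in replicate 1 and 213 in replicate 2, and all 38 shared clusters were found in each. Of the clusters of each library, 65 overlapped one of the other library, 42.5% of those of replicate 1 and 30.5% of those of replicate 2. Among the rest, 11 clusters of replicate 1 and 19 of replicate 2 had no stricter peak there, and 5 and 7 of them had no listed interval at all. Of the replicate 1 clusters, 24 had under 30% as many intervals in the other library, and 41 of the replicate 2 clusters did.

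The 12 clusters with no listed interval lay in blank stretches of the other library's table, from 12.3 to 84.9 kb long. One of them held Olig2, a transcription factor gene of the oligodendrocyte lineage, at chr16:91222241-91230220. Replicate 1 had 5 sites and 1928 listed intervals in the stretch of 73.0 kb in which replicate 2 listed 0. Another held Wdr37 at chr13:8818521-8837020, where replicate 2 had 16 sites and 4065 intervals over 84.9 kb blank in replicate 1. A cluster of 11 sites in replicate 1 at chr2:167291498-167300120, with no coding start, lay in a blank stretch of 33.0 kb. These examples were named after their values were seen. On autosomes, replicate 1 had 29366 stretches over 20 kb with no interval, and in 29 of them replicate 2 listed over 1000. Replicate 2 had 29442 such stretches, and in 18 of them replicate 1 listed over 1000. A cluster of shared sites, by its definition, cannot lie in such a stretch. The cause of the blank stretches was not tested, and whether they are blank in the submitters' own files or only in the copies analysed here is not known. The counts of clusters in each library alone, and the 0 at Olig2, hold for those copies only.

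**Figure D5:**
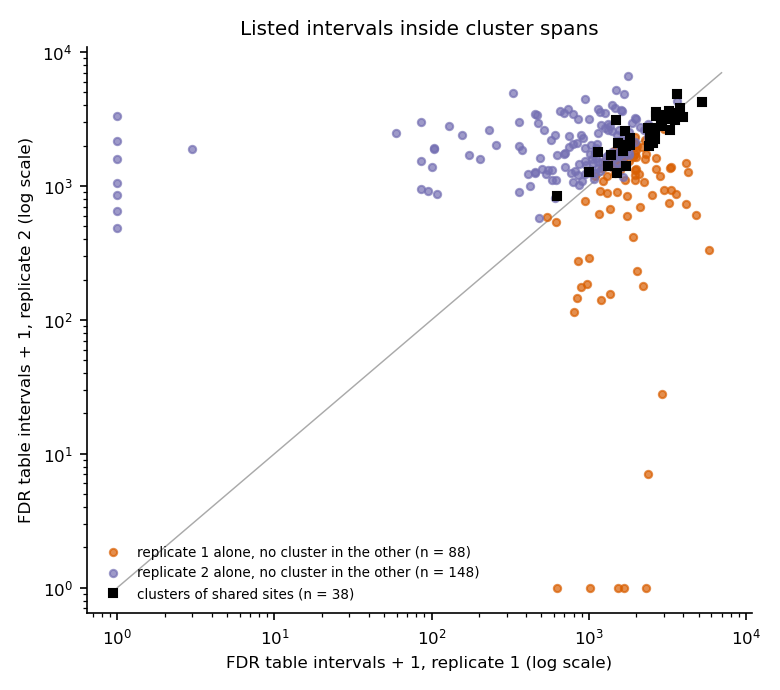
Number of listed intervals plus 1 inside cluster spans in replicate 1 (horizontal log axis) and replicate 2 (vertical log axis), with the line of equal counts in grey. Black squares are the 38 clusters of shared sites, orange circles the 88 clusters of replicate 1 and purple circles the 148 of replicate 2 without a cluster in the other library; 5 and 7 of these lie on the axis value of 1, where the other library lists 0.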

How the data were processed

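DNase-seq peaks of 2 libraries of 1 group were analysed from the deposited mm10 files. The authors called peaks on each library and deposited a signal value per peak, used unscaled as strength. They also deposited a table of FDR values (a kind of q-value), which lists only values under 0.05, and footprint intervals, whose constant score was not used. Not given in the sources used here are the aligner, the peak caller and the normalization. Stricter means the peak list with fewer rows.

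Sites were shared at 1 bp of overlap, joined within 200 bp and stitched at gaps up to 5000 bp with Python 3.11.15, pandas 2.3.3, numpy 2.4.6, scipy 1.17.1 and pysam 0.24.0. A site was near a start when its midpoint lay within 1000 bp of any GENCODE M21 transcript start. A start was inside a cluster when it lay in the span widened by 1000 bp on each side. Sequence and tRNA genes came from RefSeq GRCm38.p6, whose build matches mm10. The hybrid animals carry alleles that may differ from it. Words of 31 bases were counted over that reference on both strands. The steps were checked on simulated data.

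The members and lists were chosen with earlier results of these data known. Named clusters are the 10 with the most sites, the 5 with the most sites among those wholly away from starts, the 5 with the most coding genes, the 3 longest, the 3 with the largest ratio between libraries, the 3 strongest and the 3 inside 1 gene body. From each list, up to 4 members in clusters are named. Alternatives changed the stitching gap, joining distance, overlap, peak list, strength, number of sites, libraries, start distance, gene rule and motif window. The tRNA genes as starts, the clusters without copy-rich sequence and the B box were added after seeing the data. No test was run, since the peaks chose the members.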

Additional observations from a re-analysis of the deposited data

How the results depend on the processing

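The number of clusters, 38 as reported, followed the stitching rule: it was 18 with gaps up to 2.5 kb, 94 with 10 kb and 155 with the longest gap tried, 97 with only overlapping peaks merged, 15 with sites joined within 500 bp, 161 with the broader peak list, 12 with the strongest 50% of peaks, 142 with 4 or more sites, 15 with 6 or more, and 276 with peaks of either library. Leaving out 1 library gave 153 to 213. In the same order the median span, 7525.5 bp as reported, was 5803.5, 16220.5, 23440, 5497, 12860, 8853, 8116.5, 6105.5, 8374 and 7910 bp, with 7845.5 bp at 50% overlap and 7731 bp without the copy-rich clusters. With 1 library it was 7080 to 7341 bp. The share of sites away from starts, 49.5%, was 41.4% at that longest gap, 40.5% with only overlapping peaks merged, 58.8% for the strongest 50%, 62.1% with starts within 500 bp, 29.4% within 2.5 kb and 37.4% with tRNA genes as starts. The share of clusters without a start, 10.5%, fell to 2.63% with tRNA genes as starts, and in its other 17 alternatives it stayed within its counting interval. Median site strength, 1.68 and 1.58 in replicates 1 and 2, was 1.94 and 1.89 as a sum over peaks and 1.76 and 1.66 near starts. Listed genes in clusters, 7, were 22 to 23 with 1 library. The GC box share, 31.3%, was 22.0% in 100 bp and 41.6% in whole sites, that of CATCTG, 11.2%, was 19.2% in whole sites, and that of the B box, 8.88%, was 4.21% in 100 bp. Apart from the construction of each alternative, causes were not tested. Depth is unknown, so what it limits cannot be stated. No paired analysis was possible because there is 1 group and no comparison between groups.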

Other observations

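On the sex chromosomes, which the clusters leave out, the same steps gave 1 cluster of shared sites. It lay at chrX:169969960-169991540 over Mid1, a ubiquitin ligase gene that in the mouse reference strain spans the boundary of the pseudoautosomal region. It held 13 sites over 21.581 kb, more than any autosomal cluster, of which the largest held 11. It was not compared with the autosomal clusters, since the copy number of this region was not measured here.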
